A study of Mus musculus with 13 samples.

Results

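The combined response to a soluble activin receptor and doxorubicin was measured across genes in mouse hearts. Hearts from 3 mice given sAcvR2B-Fc 48 hours ahead of doxorubicin (pre-treated) were set against hearts from 5 mice given PBS (control), which is 8 of the 13 arrays of the study. The members are all 10410 genes with a probe detected on at least 3 of the 13 arrays. Hearts from 5 mice given doxorubicin alone entered the same model, shared its estimate of spread and are given as a further set of values. All mice were C57BL/6 males aged 8 to 10 weeks, all agents were injected intraperitoneally, and hearts were collected 20 hours after that doxorubicin or PBS dose. No mice given sAcvR2B-Fc without doxorubicin were analysed here, so the parts of the 2 agents in a difference from control cannot be told apart. Each array was taken as 1 mouse, and the p-values measure only the spread between these arrays. In RNA from whole hearts, fewer cells of a type and less RNA per cell cannot be told apart.

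The receptor-Fc fusion carries the extracellular domain of activin receptor type 2B. It binds activins, myostatin and related ligands of the TGF-beta family before they reach their receptors, which signal through SMAD transcription factors. Doxorubicin is an anthracycline that inhibits topoisomerase II, breaks DNA and activates the transcription factor p53, and its use is limited by toxicity to heart muscle. Between the muscle cells the heart holds vessels, fibroblasts and resident macrophages, which take up debris and present antigen on MHC class II molecules.

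The tissue was checked first: 7 of 7 measured cardiomyocyte markers were detected on all pre-treated and all control arrays. The 2 deposited tables disagree on the arrays. They name the same array for 5 of the 13 samples and different arrays for 8, of which 6 move to another group. The values here follow the names in the non-normalized table. Under the names in the series matrix no gene was called between pre-treated and control hearts, with 358 genes at an unadjusted p under 0.05. The tables place 1 pre-treated, 3 doxorubicin and 3 control arrays in the same group. On those arrays alone 6 genes were called, with 1 pre-treated array that is assumed to vary like the arrays of the other groups. The arrays also split along their first principal component, which held 28.9% of the variance, without regard to group. Pre-treated 2 and 3, doxorubicin 5 and control 4 and 5 lay on one side of it, between 14.95 and 23.2, and the other 8 arrays lay below 0.1.

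Of the 10410 genes, 128 differed between pre-treated and control hearts at an adjusted p under 0.05 (limma with Benjamini-Hochberg adjustment), which is 1.23% of the genes. Of these, 73 were higher in pre-treated hearts (0.701% of all genes) and 55 were lower (0.528%). With arrays scaled to a common median instead, which moved the median of all genes to 0.13, 17 were higher and 8 lower. The median difference over all genes was 0.00 on the log2 scale, and its 1st and 99th percentiles were -0.77 and 0.80. Of all genes 5216 were positive and 5194 negative. These numbers and the shares called (0.701% higher, 0.528% lower) are the background for each list count below. Among called genes the median difference was 0.75 for those higher and -0.82 for those lower. A log2 difference of 1 was passed by 22 called genes upwards and 17 downwards. The pre-treated and control arrays did not overlap for any of the 128, against 13.9% of all genes (8.06% higher and 5.81% lower). At an unadjusted p under 0.05 stood 18.3% of all genes, 10.1% higher and 8.18% lower. All 8 arrays detected 107 of them. The plot of all tested genes shows Vsig4 at the far right and the Ccl21 probes at the far left, apart from the rest.

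**Figure D1:**
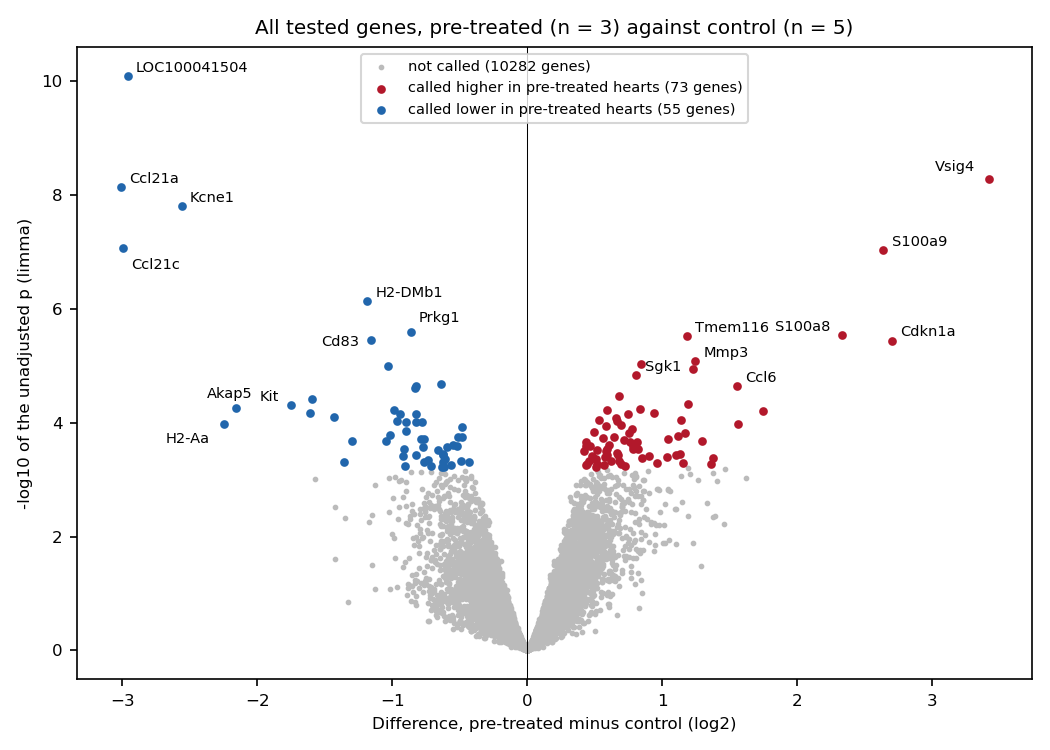
Each point is 1 of 10410 genes, placed by its difference between pre-treated (n = 3) and control (n = 5) hearts on the log2 scale and by the -log10 of its unadjusted p from limma. The 73 genes called higher are red and the 55 called lower are blue; Vsig4 lies at 3.42 and Ccl21a at -3.01.

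Of 29 measured p53 targets, 3 rose and none fell, against 0.701% and 0.528% of all genes. The median difference of the list was 0.30, against 0.00 for all genes. Cdkn1a encodes p21, which holds cells before division. Its log2 signal was 10.97, 11.13 and 9.92 on the pre-treated arrays, 10.88, 9.66, 10.89, 10.54 and 10.34 after doxorubicin alone, and 8.59, 7.53, 8.28, 8.28 and 7.16 on the control arrays. Every pre-treated array lay above every control array, and the pre-treated and doxorubicin arrays overlapped. The 2 other Cdkn1a probes rose by 2.45 ± 0.40 and 2.42 ± 0.42 (log2, SE), beside 2.70 ± 0.36 (adjusted p = 0.00312) for the main probe. Phlda3, a p53-induced brake on the kinase AKT, stood at 7.60, 8.55 and 7.79 in pre-treated hearts and between 6.09 and 6.93 in control hearts. Its difference was 1.56 ± 0.29 (adjusted p = 0.0239), and its other probe rose by 1.30 ± 0.23. Dcxr, a carbonyl reductase, differed by 1.36 ± 0.30 (adjusted p = 0.0471). Members that did not pass included Ephx1 at 1.33 ± 0.36, Sesn2 at 1.04 ± 0.26 and Mdm2, the ligase that degrades p53, at 0.49 ± 0.18. With 1 array left out at a time, the highest adjusted p was 0.039 for Cdkn1a, 0.13 for Phlda3 and 0.22 for Dcxr, each without pre-treated 2. None of the 23 measured genes of DNA damage sensing and repair was called, and they lay between -0.25 and 0.32.

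Among genes of myeloid cells, 1 of 16 resident macrophage genes, 1 of 8 monocyte genes and 2 of 6 neutrophil genes rose. None fell. Of all genes 0.701% rose and 0.528% fell. Vsig4 encodes a complement receptor of resident macrophages. Its signal was 8.68, 9.47 and 8.46 in pre-treated hearts, 6.26, 6.39, 5.93, 6.31 and 5.35 after doxorubicin alone, and 6.01, 5.33, 5.19, 5.28 and 5.44 in control hearts. The pre-treated arrays stood apart from both other groups by more than 2 log2 units, and the doxorubicin and control arrays overlapped. Against control the difference was 3.42 ± 0.27 (adjusted p = 2.49e-05). The 15 other measured genes of resident macrophages gave no call, and 12 of them were positive. The lowest of the 3 negative members lay at -0.50. Fcgr1, an Fc receptor, differed by 0.83 ± 0.21, Lyve1 by 1.10 ± 0.31 and the efferocytosis receptor Mertk by 0.42 ± 0.13. Of a shorter set of macrophage markers, some of them also in that list, 8 of 9 were positive with a median of 0.58. Mrc1 was the negative one, at -0.34. The mean signal of those markers was 8.08 to 8.66 on pre-treated arrays and 7.55 to 8.13 on control arrays, so the groups overlapped. The part of macrophage number in the rise of Vsig4 was not tested.

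Ccl6, a chemokine of myeloid cells, had signals of 6.41, 7.55 and 6.59 in pre-treated hearts, 6.44, 5.84, 6.49, 6.35 and 6.08 after doxorubicin alone, and 5.83, 5.05, 5.29, 5.06 and 5.26 in control hearts. It rose by 1.55 ± 0.25 (adjusted p = 0.0117) and was detected on 3 of 5 control arrays. It was the only call among 8 monocyte genes, whose median was 0.46. All 6 measured neutrophil genes were positive, and S100a9 and S100a8, the subunits of calprotectin, were called. S100a9 stood at 7.66, 7.38 and 7.47 in pre-treated hearts and at 5.18, 4.59, 4.97, 4.91 and 4.66 in control hearts, of which 1 was above detection. With the 4 control values below detection taken as measured, the difference was 2.64 ± 0.26 (adjusted p = 0.000158). Of the others, Lcn2, an iron-binding protein of neutrophils, lay at 0.77 ± 0.27. Csf3r, the receptor of a neutrophil growth factor, was below detection on all control arrays and was at least 1.30-fold higher, without passing the test (adjusted p = 0.134). Such a fold is a bound. It sets the mean of the group with signal against a floor for the group below detection, which is the mean over its arrays of the lowest detected signal or the gene's own, whichever is higher. Fpr2, a receptor that draws phagocytes to formylated peptides, was likewise below detection on all 5 control arrays and at least 1.51-fold higher in pre-treated hearts (adjusted p = 0.0322). Cd300ld, a receptor of myeloid cells, rose by 1.04 ± 0.22 (adjusted p = 0.0424). Without pre-treated 2 the adjusted p of Ccl6 was 0.045, that of Fpr2 0.13 and that of Cd300ld 0.21.

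Of 28 measured interferon-induced genes, 3 rose, against 0.701% of all genes, and 26 were positive, against 5216 of all 10410 genes. The median was 0.64, beside 1.05 for doxorubicin alone against the same control arrays. Oas2, a sensor of double-stranded RNA, stood at 8.63, 8.89 and 8.49 in pre-treated hearts, 9.03, 8.09, 9.41, 8.91 and 8.77 after doxorubicin alone, and 7.64, 7.74, 7.23, 7.40 and 7.48 in control hearts. Pre-treated and control arrays did not overlap, and the pre-treated arrays lay within the doxorubicin span. Dhx58, a regulator of cytosolic RNA sensing, rose by 0.90 ± 0.19 and Gbp10, a guanylate-binding protein, by 1.29 ± 0.26 (adjusted p = 0.0416 and 0.0326). Gbp10 belongs to a family of close copies, so its signal may be shared among them. Irf7, the factor that drives interferon genes, differed by 1.41 ± 0.34 and was not called (adjusted p = 0.0594). Cxcl9, an interferon-gamma chemokine, went the other way at -0.65 ± 0.20 (adjusted p = 0.109). Outside the list, Ifi207 and Ifi35, both interferon-inducible, rose by 1.14 ± 0.24 and 0.67 ± 0.14. Both were called in only 4 of 13 fits with 1 array left out. Each of the 3 list calls ended without pre-treated 2, at adjusted p of 0.14 for Oas2, 0.17 for Gbp10 and 0.21 for Dhx58.

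Complement genes split. Of 13 listed members Masp1 fell, none rose and the median was 0.32. Outside the list C4a had signals of 7.70, 8.26 and 7.79 in pre-treated hearts and 7.26, 6.95, 6.42, 6.31 and 6.95 in control hearts. It rose by 1.14 ± 0.21 (adjusted p = 0.0226). C4a and C4b are near-identical copies whose probes may read both. C1qa, C1qb and C1qc, which make up the recognition molecule C1q, lay at 0.58 ± 0.17, 0.80 ± 0.19 and 0.65 ± 0.19 without passing the test. Masp1, a protease that starts the lectin pathway, fell: 8.03, 8.47 and 8.28 in pre-treated hearts, 9.82, 9.46, 9.77, 9.53 and 9.45 after doxorubicin alone, and 8.95, 9.11, 9.35, 8.99 and 8.80 in control hearts. The 3 groups did not overlap, with the pre-treated arrays lowest and the doxorubicin arrays highest. The fall against control was 0.78 ± 0.14 on the log2 scale (adjusted p = 0.0226), and the other Masp1 probe differed by -0.69 ± 0.17. Without pre-treated 1 the adjusted p of Masp1 was 0.081, and without pre-treated 2 that of C4a was 0.13.

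Of 13 measured NF-kB response genes 2 rose, against 0.701% of all genes, and 8 of the 13 were positive, against 5216 of all 10410 genes. Nfkbia encodes the inhibitor that holds NF-kB in the cytoplasm and is itself an NF-kB target. It stood at 8.87, 8.52 and 8.68 in pre-treated hearts, 8.39, 7.83, 8.35, 8.15 and 8.21 after doxorubicin alone, and 8.07, 7.81, 7.55, 7.89 and 7.95 in control hearts, a difference of 0.84 ± 0.15 (adjusted p = 0.0212). Its second probe, detected on 1 of 3 pre-treated arrays, differed by -0.02 ± 0.41. Icam1, the adhesion molecule that leukocytes bind, rose by 0.75 ± 0.15 (adjusted p = 0.0291). The median of the list was 0.23. Outside the list, and picked out after their values were seen, the TNF receptor gene Tnfrsf1a rose by 0.72 ± 0.16, with 0.00 after doxorubicin alone. Ticam1, the adaptor TRIF of toll-like receptors, rose by 0.67 ± 0.14. Tnfrsf1a was detected on 2 of 5 control arrays, and its 2 other probes differed by 0.36 ± 0.18 and 0.41 ± 0.15. Ticam1 was detected on 3 of 5 control arrays, and its other probe differed by 0.18 ± 0.23. Each was called in 4 of 13 fits with 1 array left out. Osmr, the oncostatin M receptor, rose by 0.72 ± 0.14 (adjusted p = 0.0322) and Ctf1, the heart growth cytokine cardiotrophin 1, fell by 0.82 ± 0.18 (adjusted p = 0.0416). Both belong to 14 gp130 cytokine genes with a median of -0.04. Under median scaling it was 0.07, where the median of all genes was 0.13. Without pre-treated 1, the adjusted p of Nfkbia was 0.07, and without pre-treated 2 it was 0.13 for Icam1 and Osmr and 0.17 for Ctf1.

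The promoter of Nfkbia is shown because it holds the letters of an NF-kB site next to a gene that rose. The 120 bases before its start (RefSeq, GRCm38.p6, chr12:55492648-55492767, minus strand) hold GGGANNTTCC once, on the opposite strand, 29 to 20 bases before the start, as marked in capitals. The same window holds this motif, on either strand, in 0.606% of 32851 promoters.
Nfkbia: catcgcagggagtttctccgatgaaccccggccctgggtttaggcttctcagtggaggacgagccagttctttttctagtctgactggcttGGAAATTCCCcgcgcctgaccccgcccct

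Among 27 glucocorticoid-responsive genes, Sgk1 and Nfkbia rose and the median was 0.41. Sgk1, a kinase that controls ion channels and transporters, had signals of 12.67, 12.90 and 12.95 in pre-treated hearts, 12.37, 12.18, 12.29, 11.94 and 12.14 after doxorubicin alone, and 12.12, 11.96, 11.89, 12.27 and 11.91 in control hearts. Every pre-treated array lay above all 10 others. The difference was 0.81 ± 0.12 (adjusted p = 0.00895), against 0.15 after doxorubicin alone. Other members were Map3k6 at 1.39 ± 0.41, Arrdc2 at 1.02 ± 0.28, Cebpb at 0.86 ± 0.23 and Fkbp5, a co-chaperone of the glucocorticoid receptor, at 0.80 ± 0.23, none of them called. Without pre-treated 2 the adjusted p of Sgk1 was 0.052.

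Genes of MHC class II antigen presentation were lower in pre-treated hearts. All 10 measured members were negative, 4 fell, and the list median was -0.71. H2-Aa, the alpha chain of I-A, stood at 7.33, 6.07 and 6.17 in pre-treated hearts, 8.48, 9.04, 8.12, 8.38 and 7.51 after doxorubicin alone, and 9.56, 9.44, 8.77, 8.00 and 8.07 in control hearts. The pre-treated arrays lay below all others, and control 4 and 5 were the lowest control arrays. H2-Aa differed from control by -2.24 ± 0.42 (adjusted p = 0.0239). H2-Ab1, the beta chain of I-A, stood at 8.97, 9.25 and 9.22 in pre-treated hearts and 10.87, 10.62, 10.26, 10.60 and 10.52 in control hearts. Its 2 other probes differed by -1.32 ± 0.30 and -1.36 ± 0.29, beside -1.43 ± 0.26 (adjusted p = 0.0226) for the main probe. H2-Eb1, the beta chain of I-E, fell by 1.30 ± 0.26 on the log2 scale (adjusted p = 0.0326). H2-DMb1, part of the molecule that loads peptides, had 5.14, 5.30 and 5.03 in pre-treated hearts, 5.76, 5.85, 5.74, 5.66 and 6.14 after doxorubicin alone, and 6.61, 6.23, 6.47, 6.34 and 6.06 in control hearts. It fell by 1.18 ± 0.14 (adjusted p = 0.0011), with 2 of 3 pre-treated arrays above detection. Cd74, the invariant chain, lay at -0.92 ± 0.24 and was not called (adjusted p = 0.0757). Against doxorubicin alone the 4 called members lay between -1.78 and -0.65, and none passed the test. Leaving out 1 array kept H2-DMb1 at or below an adjusted p of 0.012, while H2-Aa reached 0.13 and H2-Ab1 0.095 without pre-treated 2, and H2-Eb1 reached 0.10 without pre-treated 1.

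Promoters of 3 of the 4 called class II genes were in the RefSeq table (GRCm38.p6) and are shown because these genes fell together. MHC class II promoters carry conserved X and Y boxes, at which the transactivator CIITA acts through bound factors. Each sequence is the 120 bases before the gene's start: chr17:34287824-34287943 on the minus strand for H2-Aa, chr17:34305747-34305866 on the plus strand for H2-Eb1 and chr17:34153071-34153190 on the plus strand for H2-DMb1. Capitals mark GATTGG, the letters of the Y box, searched on both strands, and AACTGATGATGCT, the longest run of letters that the windows of H2-Eb1 and H2-DMb1 share, in the X box region.
H2-Aa: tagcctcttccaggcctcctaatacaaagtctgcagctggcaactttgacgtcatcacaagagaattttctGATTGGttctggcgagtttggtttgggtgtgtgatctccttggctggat
H2-Eb1: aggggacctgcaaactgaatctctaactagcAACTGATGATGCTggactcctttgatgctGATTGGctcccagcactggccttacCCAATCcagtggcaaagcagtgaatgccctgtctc
H2-DMb1: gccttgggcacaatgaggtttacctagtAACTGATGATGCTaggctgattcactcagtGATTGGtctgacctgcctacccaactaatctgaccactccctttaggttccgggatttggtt
The first GATTGG begins 49 bases before the start in H2-Aa, 60 in H2-Eb1 and 62 in H2-DMb1. H2-Eb1 holds a further copy on the opposite strand, printed as CCAATC, 35 to 30 bases before the start. The same window holds GATTGG in 9.67% of 32851 promoters. It holds AACTGATGATGCT in 2 (0.00609%), H2-Eb1 and H2-DMb1 themselves, from which this run was taken. The motifs do not overlap each other in these windows. A match to letters is a description of the sequence and was not tested for binding.

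Other immune genes that fell are given here, picked out after their values were seen. Cd83, a surface protein of dendritic and other antigen-presenting cells that stabilises MHC class II, stood at 5.79, 5.83 and 5.90 in pre-treated hearts, 6.85, 6.60, 6.40, 6.89 and 6.61 after doxorubicin alone, and 7.48, 7.00, 6.92, 6.82 and 6.77 in control hearts. The pre-treated arrays lay below all others, with a difference from control of -1.16 ± 0.16 (adjusted p = 0.00312). Il16, a cytokine that attracts CD4 cells, fell by 1.35 ± 0.30 (adjusted p = 0.0459), and its other probe differed by -0.11 ± 0.23. Sema4a, a semaphorin of immune cells, fell by 0.83 ± 0.13 (adjusted p = 0.0122). Defining T cell markers were not among the tested genes, and the 1 dendritic cell marker tested lay at 0.03. Leaving out 1 array, the highest adjusted p was 0.036 for Cd83 and 0.20 for Il16, both without pre-treated 2, and 0.057 for Sema4a without pre-treated 1.

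The deepest falls were in the chemokine CCL21, which guides dendritic cells and T cells into lymphatic vessels and lymph nodes. Ccl21a stood at 7.28, 6.05 and 7.34 in pre-treated hearts, 9.73, 9.98, 9.53, 9.73 and 9.65 after doxorubicin alone, and 10.05, 9.83, 9.53, 9.99 and 10.10 in control hearts. The doxorubicin and control arrays overlapped, and the pre-treated arrays lay more than 2 log2 units below both. The difference from control was -3.01 ± 0.24 (adjusted p = 2.49e-05). Ccl21c stood at 6.82, 5.31 and 6.89 in pre-treated hearts and at 9.48, 9.18, 9.01, 9.48 and 9.53 in control hearts. Its second probe differed by -2.74 ± 0.20, and LOC100041504, a gene without a name here on the same chromosome, by -2.96 ± 0.17 (adjusted p = 8.29e-07). Ccl21a and Ccl21c are near-identical copies that their probes may not tell apart, so they may be 1 signal. LOC100041504 fell by a like amount and may also be part of that signal, which was not tested. The 6 other lymphoid chemokines measured gave no call, with Cx3cl1 at -0.51 ± 0.21 and Cxcl12 at -0.21 ± 0.11.

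Vegfc, a growth factor for lymphatic vessels, also fell, with signals of 7.20, 7.38 and 6.98 in pre-treated hearts, 8.14, 8.25, 7.64, 7.97 and 7.75 after doxorubicin alone, and 8.21, 7.96, 7.99, 8.04 and 7.85 in control hearts. Its difference from control was -0.82 ± 0.15 (adjusted p = 0.0212), and -0.06 after doxorubicin alone. Markers of lymphatic endothelium did not move together: Prox1, the factor that specifies these cells, lay at 0.12 ± 0.12, Flt4 at 0.07 ± 0.24, Pdpn at -0.46 ± 0.14 and Lyve1 at 1.10 ± 0.31. Mmrn1 and Reln lay at -0.53 and -0.28. Lyve1 is also among the resident macrophage genes above. The mean signal of 6 such markers was 7.41 to 7.61 on pre-treated arrays and 7.29 to 7.60 on control arrays. Of 13 lymphatic genes measured, Ccl21a and Vegfc fell and none rose. The mean of all 13, Ccl21a included, relative to the control means was -0.39, -0.44 and -0.21 on pre-treated arrays. On control arrays it was -0.13 to 0.08. Without pre-treated 3 the adjusted p of Vegfc was 0.066.

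**Figure D2:**
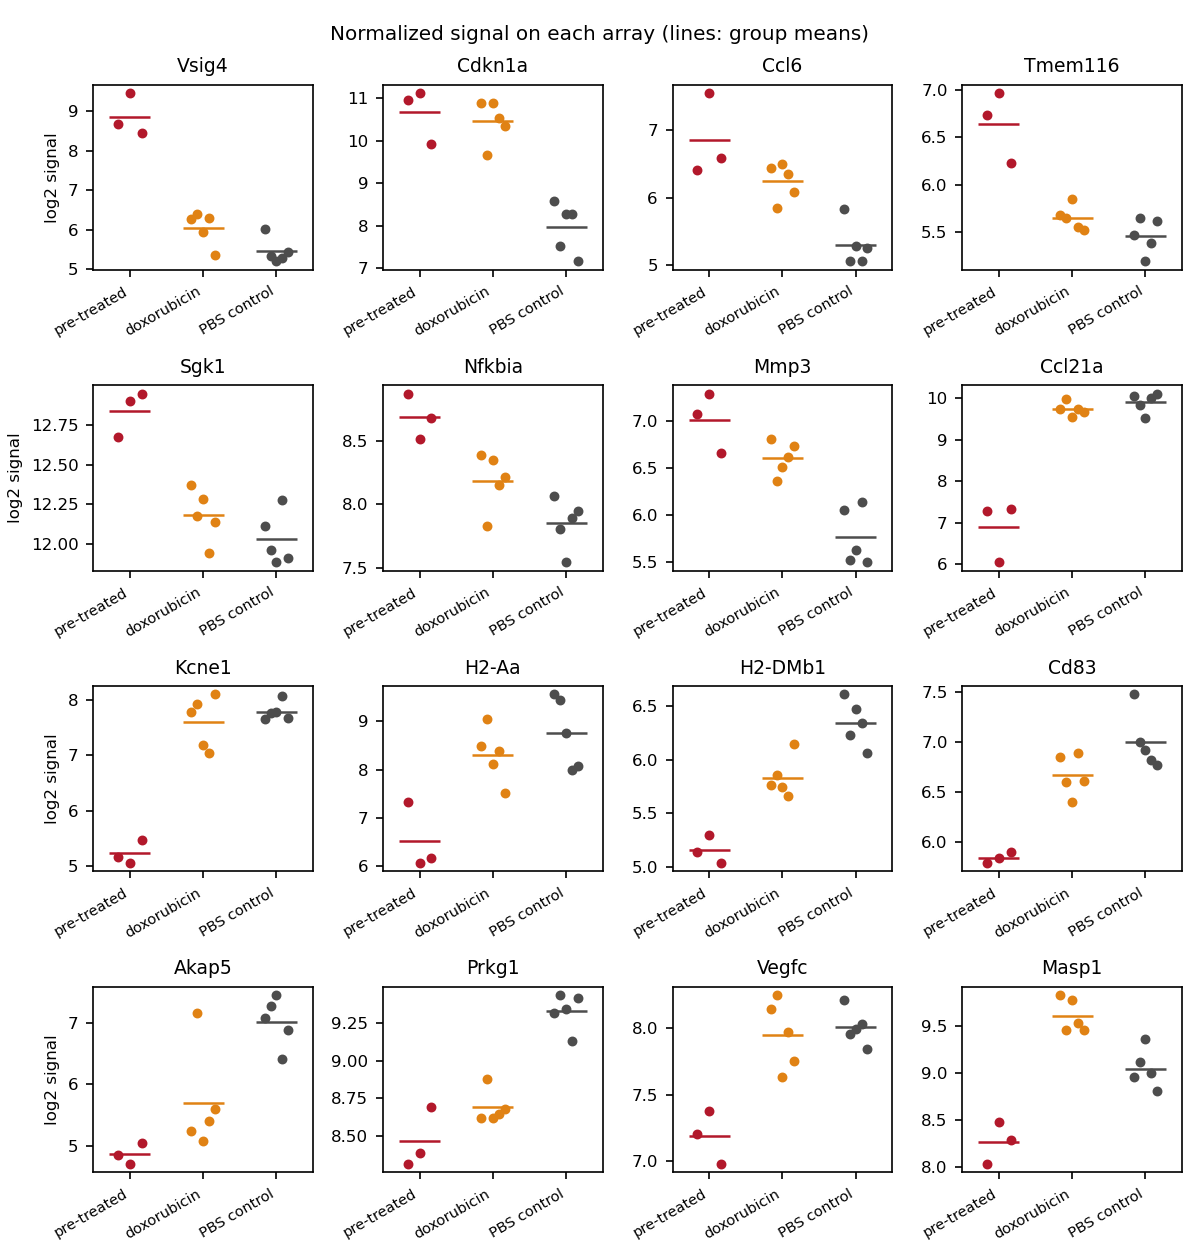
Points are the normalized log2 signals of 16 genes on each pre-treated (n = 3), doxorubicin (n = 5) and control (n = 5) array, and lines are group means. Pre-treated arrays stand apart from both other groups for Vsig4, Ccl21a and Kcne1, and overlap the doxorubicin arrays for Cdkn1a.

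Of 19 listed potassium channel genes 2 fell, against 0.528% of all genes, none rose and the median was 0.05. Kcne1, a subunit that slows the potassium channel of repolarisation, stood at 5.16, 5.05 and 5.47 in pre-treated hearts, 7.79, 7.93, 7.18, 7.03 and 8.10 after doxorubicin alone, and 7.65, 7.76, 7.78, 8.08 and 7.68 in control hearts. The pre-treated arrays lay below both other groups, which overlapped, and 2 of the 3 were above detection. The difference from control was -2.56 ± 0.22 (adjusted p = 4.1e-05). This fall rests on 1 probe: the second Kcne1 probe, detected on 1 of 3 pre-treated and 1 of 5 control arrays, differed by -0.03 ± 0.24. Kcnd2, the pore of the fast transient outward current, stood at 7.92, 7.03 and 7.80 in pre-treated hearts, 8.78, 8.55, 8.16, 8.38 and 8.08 after doxorubicin alone, and 9.19, 9.72, 9.56, 8.75 and 8.65 in control hearts. Its second probe differed by -0.70 ± 0.26, beside -1.59 ± 0.27 (adjusted p = 0.017) for the main probe. Kcnk2, which is outside the list and encodes the mechanosensitive channel TREK-1, fell by 0.91 ± 0.19 (adjusted p = 0.0372). Lrrc52, an auxiliary subunit of potassium channels also outside the list, was below detection on all control arrays. It was at least 1.57-fold higher (adjusted p = 0.0468). Probes were kept if detected on at least 3 arrays. For Lrrc52 this held only with the pre-treated arrays, as 2 doxorubicin arrays detected it, so its adjusted p lends no support. None of 20 calcium handling genes and none of 23 sarcomere genes was called. Without pre-treated 2 the adjusted p of Kcnd2 was 0.096, that of Kcnk2 0.19 and that of Lrrc52 0.58.

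Second messenger signalling held 2 falls among 24 measured genes with a median of -0.19. Akap5 anchors protein kinase A near adrenergic receptors and channels. It stood at 4.85, 4.71 and 5.04 in pre-treated hearts, none above detection, 5.24, 7.16, 5.07, 5.41 and 5.59 after doxorubicin alone, and 7.09, 7.28, 7.46, 6.41 and 6.89 in control hearts. It was at least 3.78-fold lower in pre-treated hearts (adjusted p = 0.0212), and doxorubicin 2 lay among the control arrays. Prkg1, the cGMP-dependent kinase, stood at 8.32, 8.38 and 8.69 in pre-treated hearts, 8.62, 8.88, 8.62, 8.65 and 8.68 after doxorubicin alone, and 9.31, 9.43, 9.34, 9.13 and 9.42 in control hearts. Its fall was 0.86 ± 0.11 (adjusted p = 0.00312), with -0.64 after doxorubicin alone and -0.27 ± 0.16 on its second probe. The subunits of soluble guanylate cyclase, Gucy1a1 and Gucy1b1, lay at -0.41 ± 0.10 and -0.55 ± 0.16 and were not called. Fxyd6, a regulator of the sodium pump outside the list, fell by 0.82 ± 0.13 (adjusted p = 0.0117). Agt, the precursor of angiotensin and also outside the list, was below detection on all control arrays and was at least 1.62-fold higher (adjusted p = 0.0416). Leaving out pre-treated 2 gave an adjusted p of 0.098 for Akap5, 0.036 for Prkg1 and 0.21 for Agt.

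In the pathway that sAcvR2B-Fc blocks, 1 gene was called in each of 3 lists: 1 of 16 ligands and binding proteins, 1 of 17 receptors and SMADs and 1 of 15 SMAD targets, beside 1.23% of all genes. Among the ligands Gdf9 rose, by 0.61 ± 0.12 (adjusted p = 0.0354). Its signal was 5.55, 5.97 and 5.58 in pre-treated hearts and 5.04, 5.15, 5.00, 5.04 and 5.25 in control hearts, of which 1 was above detection. Among the receptors and SMADs Eng rose, by 0.49 ± 0.11 (adjusted p = 0.0424). Eng encodes endoglin, a co-receptor of endothelial cells, and stood at 9.91, 9.82 and 9.93 in pre-treated hearts and 9.46, 9.44, 9.30, 9.25 and 9.54 in control hearts. Over the list, 13 of the 17 were negative, with a median of -0.19. Under median scaling it was -0.04, where the median of all genes was 0.13. Smad1 lay at -0.75 ± 0.21, the type I receptor Bmpr1a at -0.98 ± 0.33, Bmpr2 at -0.31 ± 0.09 and Acvr1 at -0.37 ± 0.12, none of them called. Acvr2b, the receptor from which the decoy was made, lay at -0.08 ± 0.11.

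Among the SMAD targets Hey1 fell, by 0.71 ± 0.16 (adjusted p = 0.0488). Hey1 encodes a transcriptional repressor of the Notch and BMP pathways and stood at 8.48, 8.60 and 8.84 in pre-treated hearts and 9.00, 9.41, 9.38, 9.44 and 9.50 in control hearts. Id1, an inhibitor of differentiation factors, lay at 0.60 ± 0.16 and Pmepa1, a feedback inhibitor of TGF-beta signalling, at -0.66 ± 0.17 (adjusted p = 0.0698 and 0.0757). The cardiac stress genes Nppa and Nppb lay at -0.54 ± 0.22 and -0.73 ± 0.68, and the myosins Myh6 and Myh7 at -0.13 ± 0.16 and 0.22 ± 0.26. Without pre-treated 2 the adjusted p was 0.17 for Gdf9, 0.13 for Eng and 0.19 for Hey1.

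Among matrix genes 1 protease rose. Mmp3, which degrades matrix and activates other proteases, stood at 7.07, 7.29 and 6.66 in pre-treated hearts, 6.81, 6.36, 6.51, 6.61 and 6.74 after doxorubicin alone, and 6.05, 5.52, 5.62, 6.13 and 5.49 in control hearts. It rose by 1.25 ± 0.18 (adjusted p = 0.00659), and another probe, detected on 2 of 5 control arrays, differed by 0.82 ± 0.27. A further probe also rose and was below detection on all control arrays. Mmp3 was the only call among 31 fibroblast and matrix genes. Of these, 23 were negative, and the list median was -0.10. Under median scaling it was 0.01, where the median of all genes was 0.13. Outside the list, the basement membrane genes Col18a1 and Col4a5 fell by 0.90 ± 0.20 and 0.56 ± 0.13 and the adhesion protein Vtn by 0.63 ± 0.14. The other probes of Col18a1 and Col4a5 differed by only -0.24 ± 0.17 and -0.14 ± 0.18. Sfrp1, a secreted Wnt antagonist, rose by 0.78 ± 0.15, with 0.11 ± 0.24 on its other probe. Without 1 of the pre-treated arrays, the adjusted p of Col18a1, Col4a5, Vtn and Sfrp1 reached 0.13 to 0.15.

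Further falls came from genes of unlike function, some of them picked out after their values were seen. Kit, the stem cell factor receptor, stood at 6.04, 5.87 and 6.70 in pre-treated hearts, 6.59, 8.09, 6.51, 6.90 and 7.18 after doxorubicin alone, and 8.17, 8.11, 7.86, 7.61 and 8.03 in control hearts. It differed from control by -1.75 ± 0.30 (adjusted p = 0.0207) and was the only call among 6 mast cell genes, whose median was -0.15. Itgb6, the beta subunit of an integrin that activates TGF-beta, stood at 8.10, 7.88 and 8.55 in pre-treated hearts and 9.57, 9.88, 10.22, 9.78 and 9.46 in control hearts, a difference of -1.61 ± 0.29 (adjusted p = 0.0212), and its 2 other probes differed by -1.12 ± 0.31 and -1.58 ± 0.32. Ret, the receptor for GDNF family ligands, fell by 0.90 ± 0.17 (adjusted p = 0.0279), and its other probe differed by -0.43 ± 0.27. Egfr fell by 0.43 ± 0.10 on its main probe, but its other 3 probes lay between 0.01 and 0.12. Hoxc4, a homeobox factor, passed detection on all 5 control arrays but on no pre-treated array, and was at least 1.24-fold lower (adjusted p = 0.0117). Map1b, a microtubule protein of neurons, fell by 0.82 ± 0.15, with -0.43 ± 0.20 on its other probe. Cc2d2a, a protein of the ciliary transition zone, fell by 1.05 ± 0.21. Without pre-treated 2 the adjusted p was 0.10 for Kit and 0.12 for Itgb6.

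The remaining large increases were outside the immune and p53 lists. Rasl10a, a small GTPase of the Ras family, stood at 7.69, 8.51 and 6.96 in pre-treated hearts and 6.56, 5.77, 5.80, 5.65 and 6.05 in control hearts, a difference of 1.75 ± 0.31 (adjusted p = 0.0212). Cnksr1, a scaffold of Ras signalling, rose by 1.19 ± 0.20 (adjusted p = 0.0202) and by 1.21 after doxorubicin alone. Ybx2, an RNA-binding protein known from germ cells, stood at 9.96, 9.36 and 9.15 in pre-treated hearts, 8.85, 8.30, 8.75, 9.01 and 8.88 after doxorubicin alone, and 8.34, 8.03, 8.24, 8.41 and 8.29 in control hearts, and both of its probes rose, by 1.23 ± 0.18 and 1.06 ± 0.23. Tmem116 stood at 6.74, 6.97 and 6.23 in pre-treated hearts, 5.68, 5.65, 5.85, 5.55 and 5.52 after doxorubicin alone, and 5.47, 5.65, 5.19, 5.38 and 5.61 in control hearts. Every pre-treated array lay above all others for both genes. The 2 other Tmem116 probes differed by 0.22 ± 0.24 and 0.42 ± 0.22, so its rise was largest on the main probe. Acer2, a ceramidase of the Golgi, rose by 1.12 ± 0.22 (adjusted p = 0.0318), Cyp4b1, a cytochrome P450, by 0.94 ± 0.17 (adjusted p = 0.0212), Pdxp, a phosphatase, by 1.38 ± 0.30 (adjusted p = 0.0429) and H3c6, a histone H3 gene with near-identical copies, by 1.16 ± 0.26 (adjusted p = 0.0468). With 1 array left out, Ybx2 and Tmem116 stayed at or below an adjusted p of 0.039. Without pre-treated 2, Rasl10a and Cnksr1 reached 0.098, Cyp4b1 0.12, Acer2 0.13, and Pdxp and H3c6 0.21.

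Smaller increases came from genes of membrane traffic and metabolism, picked out here after their values were seen. Gpaa1, which attaches lipid anchors to proteins, rose by 0.68 ± 0.11 (adjusted p = 0.016), Cog7, part of a Golgi tethering complex, by 0.59 ± 0.10, Man2a1, a Golgi mannosidase, by 0.70 ± 0.13 and Trappc6a, part of another tethering complex, by 0.68 ± 0.15. Mrpl45, a protein of the mitochondrial ribosome, rose by 0.84 ± 0.12 (adjusted p = 0.00679). Its signals were 6.56, 6.50 and 6.33 in pre-treated hearts, 5.88, 5.82, 6.03, 5.94 and 5.85 after doxorubicin alone, and 5.80, 5.33, 5.77, 5.43 and 5.76 in control hearts. Hlcs, which attaches biotin to carboxylases, rose by 0.75 ± 0.13, Coq8b, needed for coenzyme Q, by 0.53 ± 0.10, Acox3, a peroxisomal oxidase, by 0.47 ± 0.10 and Tysnd1, a peroxisomal protease, by 0.76 ± 0.15. Hp, which encodes the haemoglobin scavenger haptoglobin, was below detection on all control arrays and was at least 1.19-fold higher (adjusted p = 0.0226). Like Lrrc52, Hp was kept only with the pre-treated arrays, as 2 doxorubicin arrays detected it, so its adjusted p lends no support. Mrpl45 was called in all 13 fits with 1 array left out. Hlcs, Coq8b, Acox3 and Tysnd1 were called in 10, 9, 5 and 8 of them, and Gpaa1, Cog7, Man2a1 and Trappc6a in 11, 9, 8 and 3. Hp was called in 9, but the same filter ran in those fits, so this count lends no support either.

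Many lists gave no call. None of 45 oxidative phosphorylation genes, 36 fatty acid genes, 28 glucose and glycogen genes or 38 ribosomal protein genes was called, and their medians lay between -0.01 and 0.09. The 30 measured NRF2 and antioxidant genes gave no call either, though 26 were positive, with a median of 0.22, and 13 did not overlap between pre-treated and control arrays, against 8.06% of all genes. Hmox1, which breaks down haem, stood at 7.09, 9.38 and 7.27 in pre-treated hearts and 6.59, 6.67, 6.01, 6.44 and 6.59 in control hearts, with pre-treated 2 far above the rest, and was not called (1.46 ± 0.45, adjusted p = 0.109). Xdh lay at 1.14 ± 0.27 and Mgst1 at 1.06 ± 0.27. Among 9 erythroid genes the median was -0.85 with no call. Alas2, the first enzyme of haem synthesis in red cell precursors, lay at -1.35 ± 0.40 and the globin Hbb-bs at -0.90 ± 0.25. The mean of 4 erythroid markers was 9.27 to 10.07 on pre-treated arrays and 10.23 to 10.82 on control arrays, and the part of blood content in other differences was not tested.

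**Figure D3:**
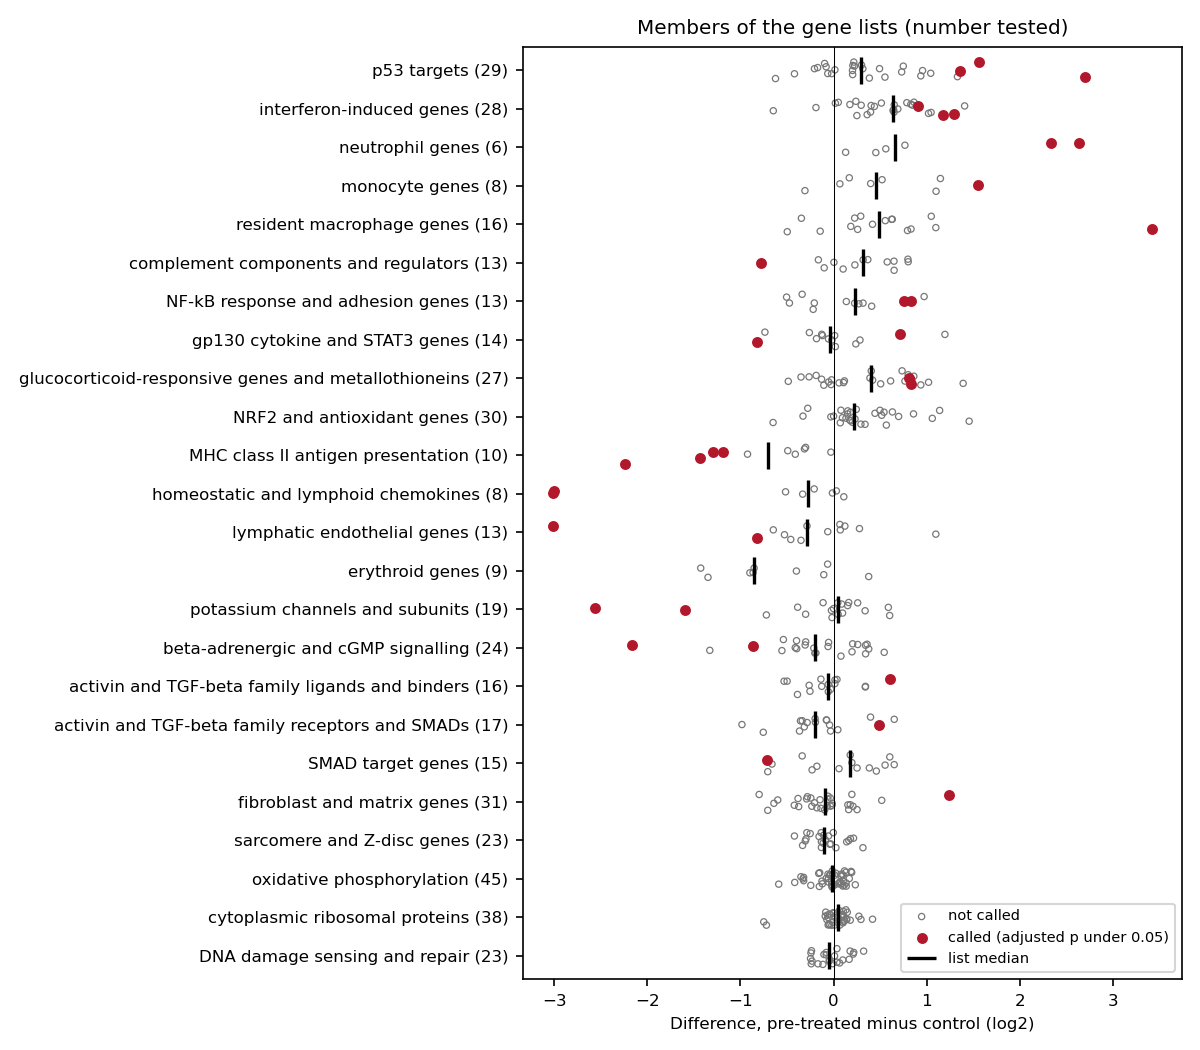
Each circle is the difference between pre-treated and control hearts, on the log2 scale, of 1 measured member of a gene list, filled where the gene was called, and bars are list medians. The class II list lies wholly below 0 with a median of -0.71, and the oxidative phosphorylation list lies around 0.

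Of the 128 called genes, 7 also differed from doxorubicin alone: Vsig4 and Tmem116 were higher, and Ccl21a, Ccl21c, LOC100041504, Kcne1 and Masp1 were lower. Ccl21a, Ccl21c and LOC100041504 may be 1 signal. The comparison with doxorubicin alone called 9 genes in all (0.0865% of those tested). The others were Clec10a, a lectin of macrophages and dendritic cells, which was lower (adjusted p = 0.0348) and below detection on all pre-treated arrays, and Dipk1b, higher by 0.68 on the log2 scale. Pre-treated minus doxorubicin was 2.83 ± 0.27 for Vsig4 (adjusted p = 0.00015), -2.84 ± 0.24 for Ccl21a (adjusted p = 7.9e-05), -2.38 ± 0.22 for Kcne1 (adjusted p = 0.00014), -1.34 ± 0.14 for Masp1 (adjusted p = 0.00043) and 1.00 ± 0.16 for Tmem116 (adjusted p = 0.029). For the other called genes no difference from doxorubicin alone was found, which does not show that the groups are alike. Against the shared control arrays, doxorubicin alone called 25 genes (0.24%). Among these arrays, doxorubicin 2 correlated best with control 1 (0.993). Its mean difference from the control means was 0.10 for p53 targets and 0.29 for interferon-induced genes. The other doxorubicin arrays lay at 0.40 to 0.76 and 0.94 to 1.38. For neutrophil genes it lay at 0.83, above the control arrays (-0.22 to 0.23). Values after doxorubicin alone include this array, and why it differed was not tested. The median difference of the 73 genes higher in pre-treated hearts was 0.75, and 0.35 after doxorubicin alone. For the 55 lower genes it was -0.82, and -0.32 after doxorubicin alone. The members were chosen on the first of each pair, so a smaller second value follows in part from the choice.

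**Figure D4:**
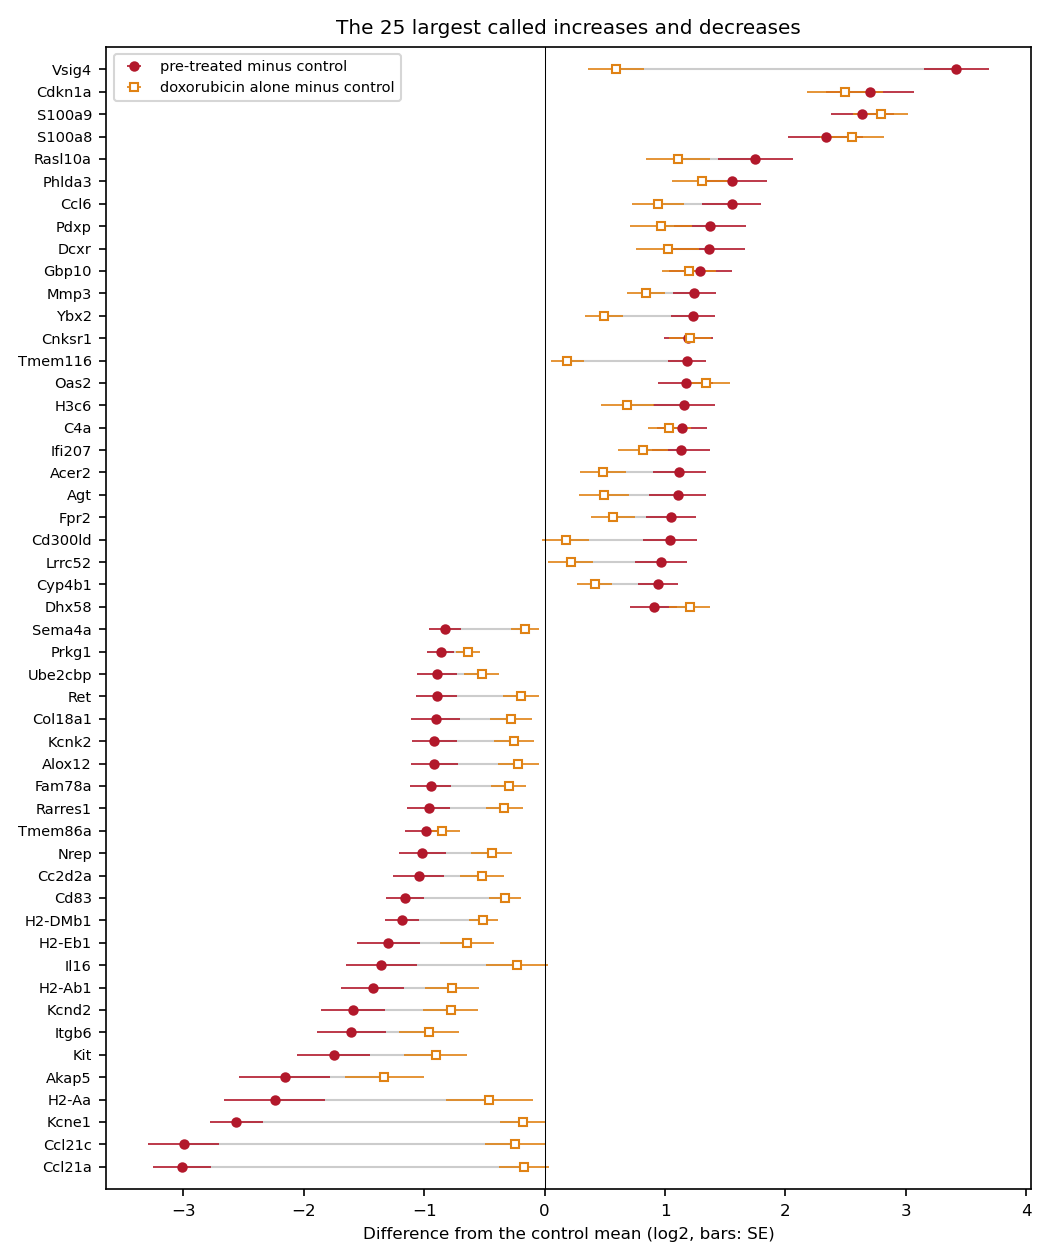
For the 25 largest called increases and the 25 largest called decreases, filled circles give pre-treated minus control and open squares doxorubicin alone minus control, on the log2 scale with SE, both against the same 5 control arrays. The values lie close together for Cdkn1a, S100a9 and Oas2 and far apart for Vsig4, Kcne1 and Ccl21a.

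The number of called genes moved with single arrays. With 1 array left out, between 23 (without control 3) and 309 (without doxorubicin 2) genes were called. Without control 2 there were 26, and without pre-treated 1, 2 or 3 there were 41, 28 and 57. Called in all 13 such fits were 19 of the 128: D630003M21Rik, Vsig4, Cdkn1a, S100a8, S100a9, Ccl6, Mmp3, Ybx2, Tmem116, Mrpl45, Ccl21a, Ccl21c, LOC100041504, Kcne1, H2-DMb1, Cd83, Prkg1, Fxyd6 and Hoxc4. Among them Ccl21a, Ccl21c and LOC100041504 may be 1 signal. In fewer than 5 of the 13 fits were 48 called. Other probes existed for 48 called genes: 56 of 64 such probes had the same direction, and 8 were themselves called in a fit over all 15876 passing probes (0.819% of them). The 5 genes with a probe in the opposite direction are Egfr, Cgnl1, Epb41l4a, Nfkbia and Zfp710.

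**Figure D5:**
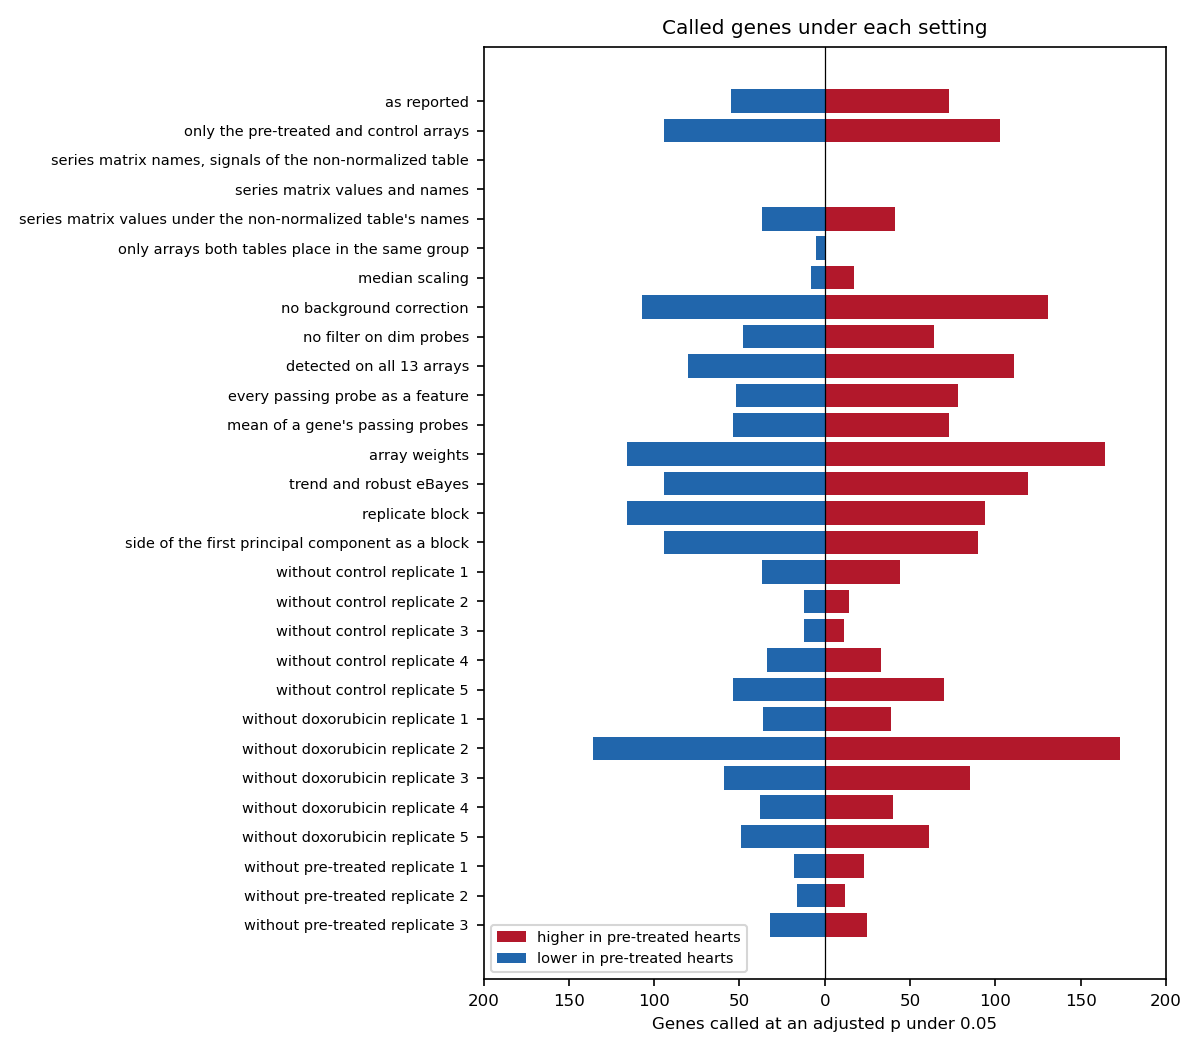
Bars give the number of genes called higher (right) and lower (left) in pre-treated than in control hearts under each setting, at an adjusted p under 0.05. The reported fit calls 73 and 55; the series matrix names call none, and single arrays left out give 23 to 309 in all.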

How the data were processed

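RNA from 13 mouse hearts (3 pre-treated, 5 doxorubicin, 5 control) was hybridised to Illumina expression BeadChips, per the labels' protocols. The deposited non-normalized table holds linear probe intensity, beside which the file headers place a p-value of detection per array; the software that made both was not given in the sources used here. A deposited series matrix holds intensity values that, judged from the values, were background-subtracted and quantile-normalized. Columns were assigned by the names in the non-normalized table. Each column of the series matrix matched 1 array with a Spearman correlation of at least 0.999994, against 0.903779 or less for the next array, and 8 of 13 names differed between the tables.

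Signals were background-corrected, quantile-normalized and log2-transformed with neqc of limma 3.58.1 (R 4.3.3, offset 16). Each array detected 15989 to 17939 of 45281 probes. Of the probes, 34885 had 1 gene symbol, 18 several and 10378 none. Probes detected (p under 0.05) on at least 3 arrays were kept, 15876 of them with 1 symbol, and the probe with the highest mean stood for each of 10410 genes. The 3 groups were fitted together with lmFit and eBayes, and p-values were adjusted over all genes by the Benjamini-Hochberg method. SE are those of the fit with 3 pre-treated and 5 control arrays. The script was tested on simulated data.

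The members and the 51 gene and 19 marker lists were chosen with earlier results of these data known. Named genes are the 25 largest called increases and decreases without overlap, called list members, the members with the lowest p of each list (at most 6), and a short set of activin pathway and cardiac genes; others were picked after their values were seen. Same-numbered arrays were checked for pairing, which was not found. Alternatives covered scaling, background, filters, probes per gene, weights, the table used and each array left out. Promoter sequences came from RefSeq.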

Additional observations from a re-analysis of the deposited data

Results flagged for a closer look

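Of 123 named genes tested for 1 array far from the other 4 control arrays, Hey1 was the only one marked, where chance alone marks about 1 in 20. Control 1 stood at 9.00 and the other control arrays between 9.38 and 9.50, a gap of 0.767 of the range of the group. The pre-treated arrays lay lower still, at 8.48, 8.60 and 8.84.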

How the results depend on the processing

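The counts of called genes depended on the processing. Against control, 128 genes were called as reported, 73 higher and 55 lower, and against doxorubicin alone 9. Under the series matrix names both comparisons gave 0 calls, with either table's values, 0 higher and 0 lower by limma, with 358 genes (non-normalized signals) and 362 genes (matrix values) at an unadjusted p under 0.05. Series matrix values under the non-normalized table's names called 78, 41 higher and 37 lower. The arrays both tables place alike, with 1 pre-treated array, called 6 (1 higher, 5 lower) and, against doxorubicin alone, 4. Median scaling called 25 (17 higher, 8 lower). More were called with the pre-treated and control arrays only (197; 103 and 94), no background correction (238; 131 and 107), probes detected on all 13 arrays (191; 111 and 80), array weights (280; 164 and 116) and a robust trended prior (213; 119 and 94). The side of the first principal component as a block, chosen after seeing the data, called 184 (90 and 94). Every other setting not listed stayed within 1.5 times of the reported counts. With 1 array left out, 23 to 309 were called, 11 to 173 higher and 12 to 136 lower, and 6 to 11 against doxorubicin alone. The cause of these shifts was not tested.

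The replicate number as a block called 210 genes (94 higher, 116 lower) and 64 against doxorubicin alone. Deviations of pre-treated and control arrays with the same number correlated at 0.18, -0.10 and -0.25 for replicates 1 to 3, so no steady pairing was seen. Doxorubicin arrays were not checked in this way, and 3 correlations cannot exclude pairing.

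Named genes changed sign almost only under the series matrix names. Opposite in sign with the non-normalized signals and with the series matrix values, in that order, were Acvr2b (0.027 and 0.029), C1qa (-0.018 and -0.015), C1qb (-0.17 and -0.17), C1qc (-0.26 and -0.26), C4a (-0.22 and -0.25), C4b (-0.10 and -0.11), Ccl6 (-0.079 and -0.0066), Cd300ld (-0.16 and -0.19) and Cebpb (-0.28 and -0.28). The same held for Cx3cl1 (0.0024 and 0.0032), Cxcl12 (0.021 and 0.020), Cyp4b1 (-0.016 and -0.015), Dipk1b (-0.12 and -0.14), Epb41l4a (0.10 and 0.11), Ephx1 (-0.051 and -0.050), Fcgr1 (-0.29 and -0.86), Fpr2 (-0.11 and -0.88) and Gdf9 (-0.13 and -0.24). Further such genes were Gucy1a1 (0.059 and 0.058), Gucy1b1 (0.072 and 0.081), H3c6 (-0.20 and -0.21), Hmox1 (-0.68 and -0.75), Icam1 (-0.034 and -0.032), Irf7 (-0.037 and -0.042), Lcn2 (-0.37 and -0.54), Lyve1 (-0.12 and -0.12) and Mertk (-0.16 and -0.17). The list goes on with Myh6 (0.24 and 0.24), Nppb (0.51 and 0.51), Phlda3 (-0.10 and -0.11), Rasl10a (-0.072 and -0.068), Sesn2 (-0.25 and -0.51), Sfrp1 (-0.10 and -0.11), Tmem116 (-0.033 and -0.10) and Vsig4 (-0.10 and -0.23). With the series matrix values alone, it turned for Agt (-0.30), Kcnk2 (0.017), S100a8 (-0.13) and Tnfrsf1a (-0.18). Among other settings, median scaling turned Acvr2b to 0.10, and averaging a gene's probes turned Bmpr2 to 0.030 and Epb41l4a to 0.034. On the arrays that both tables place alike, Flt4 lay at -0.074, Myh6 at 0.16 and Nppb at 0.030. Flt4 was also negative with the component side as a block (-0.024), without control 2 (-0.016) and without pre-treated 3 (-0.087), and Myh7 without pre-treated 1 (-0.094). With 1 array left out, Flt4 ranged from -0.087 to 0.21 and Myh7 from -0.094 to 0.47. The number of arrays limits precision, as does signal near background for genes undetected in a group.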
